A study of Homo sapiens with 12 samples.

Results

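SNAI1, SNAI2, TWIST1, TWIST2, ZEB1 and ZEB2, the classical transcription factors of epithelial-mesenchymal transition (EMT), and VIM, which encodes the intermediate filament protein vimentin, were followed by gene symbol through RNA-seq of MDA-MB-231 cells. Of these 7 genes, 6 are listed among the 19907 symbols of the tables used here, and 5 (SNAI1, SNAI2, ZEB1, ZEB2 and VIM) were among the 18579 genes with enough reads to be tested. TWIST1 was not analysed here. MDA-MB-231 is an established human triple-negative breast cancer (TNBC) line of mesenchymal appearance that expresses the glucocorticoid receptor (GR). The wt-GR cells were clone 34A, which went through the same CRISPR/Cas9 procedure and kept the unedited receptor. The S134A-GR cells were clone #1, in which both alleles of NR3C1, the gene of GR, carried the replacement of Ser134 by alanine. Each line was therefore 1 clone, and a difference between genotypes cannot be told apart from a difference between clones. Before treatment, both lines spent 18 h in IMEM with DCC (charcoal-stripped serum) at 1%. They were then given vehicle (Veh) or TGFβ1 at 10 ng/mL, for 6 h in either case, and the labels name no added GR ligand in any group. The 4 groups, wt-GR Veh, wt-GR TGFβ1, S134A-GR Veh and S134A-GR TGFβ1, had 3 replicates each, which gave 12 libraries.

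In EMT, epithelial cells lose their junctions and apical-basal polarity and take on a motile, mesenchymal state. SNAI1 and SNAI2 (SLUG) are zinc finger repressors that bind E-box sequences in the promoters of CDH1 (E-cadherin) and other epithelial genes. ZEB1 and ZEB2 (SIP1) are larger zinc finger proteins that bind the same kind of E-box, recruit co-repressors and are held down in epithelial cells by the miR-200 family, which they in turn repress. TWIST1 and TWIST2 are basic helix-loop-helix factors. TGFβ1 acts through receptor-activated SMAD proteins, and SNAI1 is a well-known early target of that pathway. Vimentin is the main intermediate filament of mesenchymal cells and the marker most often used to score EMT.

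The deposited values were normalized counts, that is, reads per gene divided by the size factor of the library. The reads recovered from them ranged from 56362036 in wt-GR Veh replicate 1 to 129832227 in wt-GR TGFβ1 replicate 2, and 3 reads, taken as the floor of detection, corresponded to 2.15 to 4.89 normalized counts depending on the library. NR3C1, the edited gene, averaged 11771 ± 1186 normalized counts in wt-GR Veh and 8815 ± 259 in S134A-GR Veh (SD, n = 3), which is −0.41 on the log2 scale (limma adjusted p = 0.00012). Its level does not check a point mutation. As a check of the treatment, SMAD7 and SKIL rose in both lines, with log2 fold changes of TGFβ1 against vehicle of 1.19 and 1.32 for SMAD7 and of 1.62 and 1.51 for SKIL in wt-GR and S134A-GR cells. Of the genes taken as a check of the cell line, CD44 had group means of 41884 to 60879 and EGFR of 15379 to 20602 normalized counts, while ESR1 was at 0.702 to 6.02. ERBB2 was present at 7734 to 10494 normalized counts, and PGR was not analysed here. Group means of CDH1, at 4.09 to 9.37 normalized counts, lay near the floor in all 4 groups, as is typical of this line, while EPCAM was present at 339 to 1024. The labels do not say that replicates came from separate cultures, so p-values measure the spread between these libraries, which may be technical. In these bulk libraries, fewer cells with a transcript and less of it per cell cannot be told apart.

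The levels of the 5 genes spanned orders of magnitude when expressed per kb of their MANE Select transcript (1705 bases for SNAI1, 2180 for SNAI2, 5937 for ZEB1, 9265 for ZEB2 and 2154 for VIM). VIM stood at 196345 ± 1569 normalized counts per kb (SD, n = 3) in wt-GR Veh and at 233391 ± 4137 in wt-GR TGFβ1, above 99.9% of the 14547 genes ranked in each of the 4 groups. ZEB1 came next in wt-GR Veh with 1713 ± 123 per kb, followed by SNAI2 with 1185 ± 16.7, SNAI1 with 252 ± 11.6 and ZEB2 with 149 ± 9.28. In that group the gaps between neighbours in the order were larger than their SDs. In S134A-GR TGFβ1 the order was less clear, because SNAI2 at 1668 ± 99.0 per kb and ZEB1 at 1654 ± 113 differed by less than their SDs. ZEB2 was the lowest of the 5 in every group, with 65.4 ± 2.75 per kb in S134A-GR Veh and 67.3 ± 6.95 in S134A-GR TGFβ1. Among the genes ranked, SNAI1 stood above 41.1% of them in wt-GR Veh, 62.7% in wt-GR TGFβ1, 39.4% in S134A-GR Veh and 49.6% in S134A-GR TGFβ1.

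**Figure D1:**
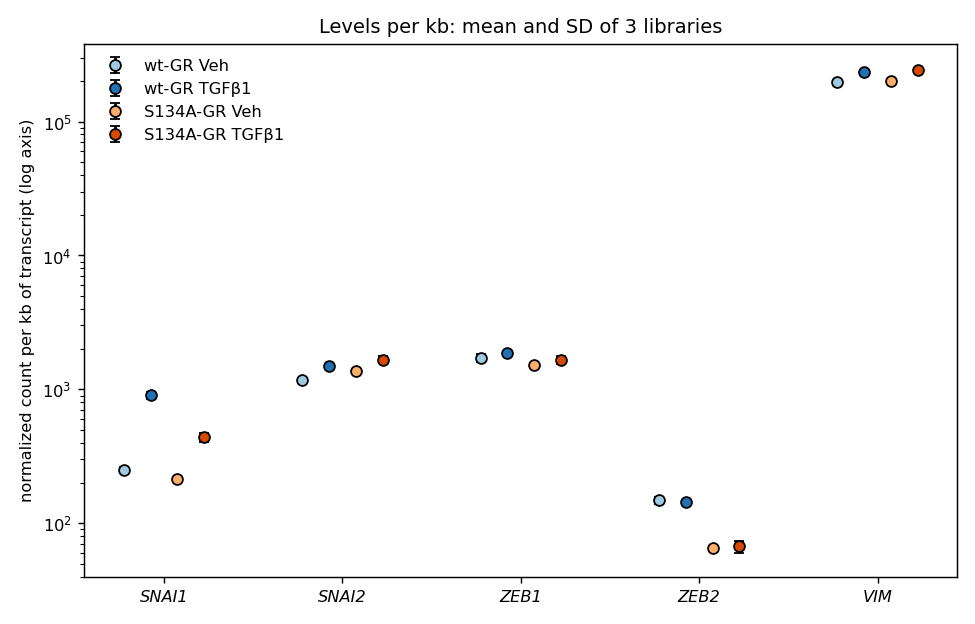
Mean normalized count per kb of MANE Select transcript (log axis) of the 5 tested genes in the 4 groups, with the SD of 3 libraries as bars, many of which are smaller than the points. VIM lies above all other genes shown, SNAI2 and ZEB1 lie close together, and ZEB2 is lowest, at 145 to 149 per kb in wt-GR cells and 65.4 to 67.3 in S134A-GR cells.

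TWIST2 (chr2:238848032-238910534, plus strand; coordinates here and below are those of GENCODE v44 on GRCh38) was listed at 0 in 11 of the 12 libraries. In the remaining library, wt-GR TGFβ1 replicate 2, it was listed at 4.39 normalized counts, which are 6 reads. A count of 0 allows up to 2.15 to 4.89 normalized counts in a library of this depth, for counting error only, so TWIST2 was not detectable in 11 libraries and was near the floor in the other one. With fewer than 10 reads in all, it was not tested.

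The comparison of TGFβ1 with vehicle asked which of these genes the cytokine induced within 6 h and whether S134A-GR cells responded as wt-GR cells did. SNAI1, SNAI2 and VIM rose in both lines, SNAI1 by far the most, and the SNAI1 response was smaller in S134A-GR cells. ZEB1 and ZEB2 did not pass the test in either line. In wt-GR cells 3 of the 5 genes tested were called higher and 0 lower at an adjusted p under 0.05 by limma, where 11.2% of all genes tested were called higher and 9.82% lower. In S134A-GR cells the counts were again 3 higher and 0 lower, with 10% of all genes called higher and 8.69% lower. When a size of 1 or more on the log2 scale, in either direction, was also required, SNAI1 was the 1 gene of the 5 called in each line, against 2.29% of all genes in wt-GR and 1.66% in S134A-GR cells.

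SNAI1 (ENSG00000124216.4, chr20:49982980-49988886, plus strand), which encodes the factor SNAIL, had 430.2, 410.1 and 449.6 normalized counts in the 3 wt-GR Veh libraries and 1546, 1437 and 1632 in those of wt-GR TGFβ1. In S134A-GR cells the values were 368, 364 and 368 under vehicle and 792, 779 and 676 under TGFβ1. All TGFβ1 libraries were above all vehicle libraries, and no S134A-GR library with TGFβ1 reached a wt-GR library with TGFβ1. The log2 fold change of TGFβ1 against vehicle was 1.84 (SE 0.0781, limma adjusted p = 7.75e-10) in wt-GR cells, which is 3.57-fold, and 1.03 (SE 0.0781, adjusted p = 4.16e-07) in S134A-GR cells, which is 2.04-fold. The difference between these responses, S134A-GR minus wt-GR, was −0.81 on the log2 scale (SE 0.11, 95% interval −1.05 to −0.57, limma adjusted p = 0.00717). SNAI1 was thus the 1 gene of the 5 whose response differed between the lines, where 0.414% of all genes tested were called. When a size of 1 was also required of the difference, 0 of the 5 genes were called, against 0.0592% of all genes, since SNAI1 falls short of that size. In the 20 alternative settings run for this value, the difference lay between −0.86 and −0.74, with adjusted p-values of 1.9e-07 to 0.0323. SNAI1 belongs to the gene signature that the study picked from these libraries, so its presence there is not independent evidence. That signature holds genes that passed the study's own fold-change cutoff with TGFβ1 in wt-GR but not in S134A-GR cells. At the threshold used here, which sets no fold change, SNAI1 was also called higher in S134A-GR cells, by 1.03 on the log2 scale.

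SNAI2 (ENSG00000019549.13, chr8:48917598-48921740, minus strand), which encodes SLUG, rose in both lines by a smaller step. It had 2542, 2605 and 2605 normalized counts in wt-GR Veh, 3364, 3287 and 3066 in wt-GR TGFβ1, 3046, 2864 and 2993 in S134A-GR Veh, and 3880.4, 3472 and 3556 in S134A-GR TGFβ1. Within each line the TGFβ1 libraries were all above the vehicle libraries. The log2 fold changes were 0.32 (SE 0.0503, adjusted p = 0.000317 by limma) in wt-GR and 0.29 (SE 0.0503, adjusted p = 0.00089) in S134A-GR cells. Their difference of −0.03 had a 95% interval of −0.19 to 0.12 (adjusted p = 0.911). The per-kb ratio of SNAI2 to SNAI1, taken within each library, was 4.71 ± 0.231 in wt-GR Veh and 1.65 ± 0.165 in wt-GR TGFβ1 (SD, n = 3). In S134A-GR Veh it was 6.33 ± 0.166, and in S134A-GR TGFβ1 3.81 ± 0.314. The ratios of the 4 groups did not overlap. After TGFβ1, SNAI2 transcripts per kb remained above those of SNAI1 in every library, by the least in wt-GR TGFβ1.

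VIM (ENSG00000026025.16, chr10:17228241-17237593, plus strand) had 426532, 422419 and 419832 normalized counts in wt-GR Veh and 493148, 510773 and 504254 in wt-GR TGFβ1. In S134A-GR cells it had 425010, 430097 and 431198 under vehicle and 528887, 533198 and 500529 under TGFβ1. Every TGFβ1 library was above every vehicle library, and within each treatment the 2 lines overlapped. The log2 fold change of TGFβ1 against vehicle was 0.25 (SE 0.0363, adjusted p = 0.000184 by limma) in wt-GR and 0.28 (SE 0.0363, adjusted p = 7.54e-05) in S134A-GR cells, 1.19-fold and 1.21-fold. The difference between the responses was 0.03, with a 95% interval of −0.08 to 0.14 (adjusted p = 0.884).

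ZEB1 (ENSG00000148516.23, chr10:31318495-31529814, plus strand) had 10878, 10224 and 9414 normalized counts in wt-GR Veh, 11040.3, 11343 and 10677 in wt-GR TGFβ1, 8858, 9020.0 and 9193 in S134A-GR Veh, and 10597, 9423 and 9444 in S134A-GR TGFβ1. In wt-GR cells vehicle and TGFβ1 libraries overlapped, whereas in S134A-GR cells the TGFβ1 libraries were the higher ones. The log2 fold changes of 0.12 in both lines did not pass the test, with limma adjusted p-values of 0.154 and 0.153. Without wt-GR Veh replicate 1, the library with the fewest reads, the value in wt-GR cells became 0.17 with an adjusted p of 0.048. ZEB2 (ENSG00000169554.23, chr2:144364364-144521057, minus strand), whose product also binds activated SMADs, had log2 fold changes of −0.03 and 0.04 (95% intervals −0.20 to 0.13 and −0.13 to 0.20, adjusted p = 0.821 and 0.812). The differences between the lines in response were 0.00 for ZEB1 (95% interval −0.16 to 0.17) and 0.07 for ZEB2 (−0.16 to 0.30), and neither passed the test.

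**Figure D2:**
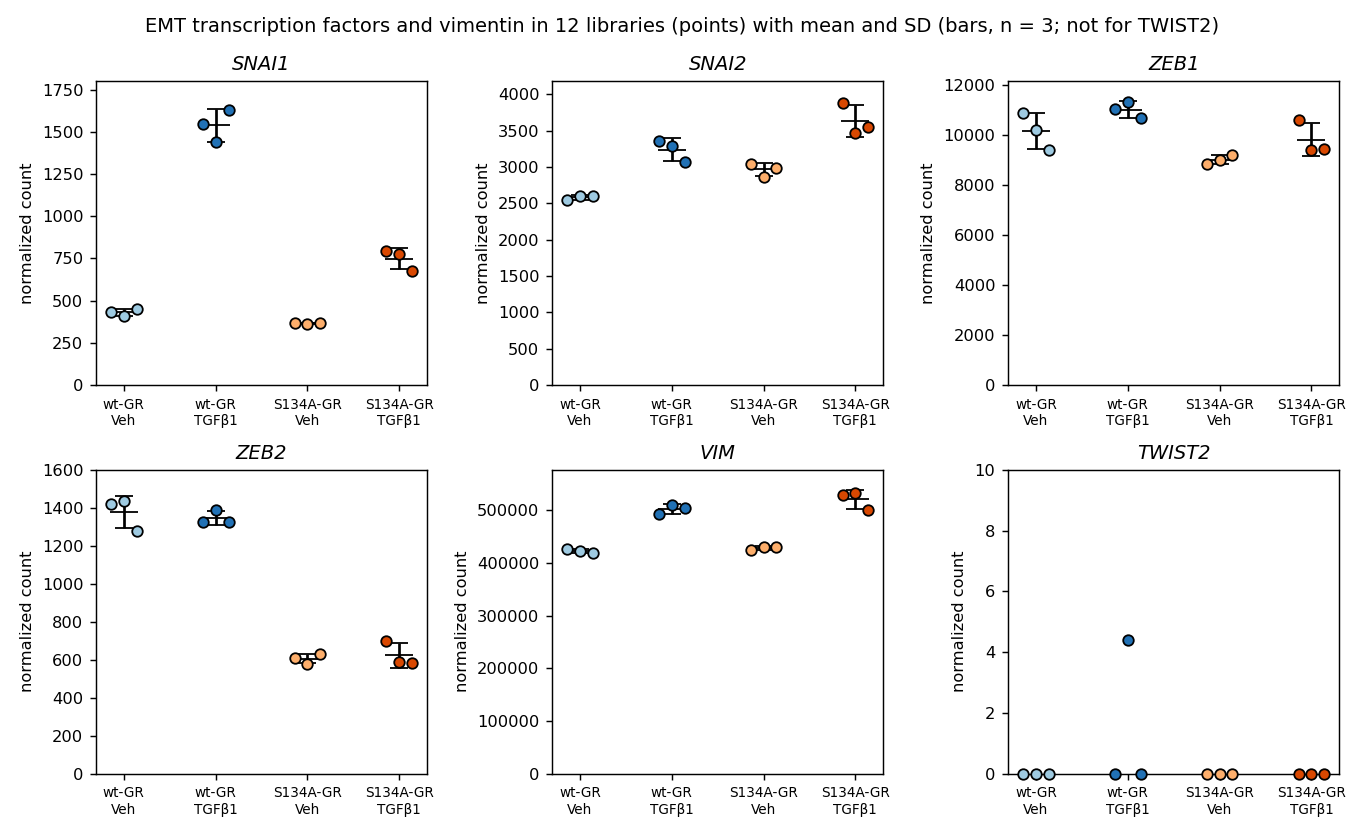
Normalized counts (linear axes from 0) of SNAI1, SNAI2, ZEB1, ZEB2, VIM and TWIST2 in each of the 12 libraries, with mean and SD of 3 libraries as bars except for TWIST2. SNAI1 under TGFβ1 lies between 1437 and 1632 in wt-GR cells and between 676 and 792 in S134A-GR cells, ZEB2 separates by line and not by treatment, and TWIST2 is above 0 in 1 library.

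The comparison of the lines set the S134A-GR clone against the wt-GR clone, without stimulus and under TGFβ1. With 1 clone per genotype, it cannot tie a change in these genes to the loss of the phosphorylation site at Ser134. ZEB2 in S134A-GR cells was at 0.44 of its wt-GR level under vehicle and at 0.462 under TGFβ1. SNAI1 was at 0.853 of its wt-GR level under vehicle and at 0.487 under TGFβ1, ZEB1 was slightly lower and SNAI2 slightly higher under both, and VIM did not pass the test. Under vehicle 1 of the 5 genes was called higher and 3 lower at an adjusted p under 0.05, where 25% of all genes tested were called higher and 26.5% lower. Under TGFβ1 the counts were also 1 and 3, where 23.1% were called higher and 25.7% lower. With the same requirement on size, ZEB2 was called under vehicle, 1 of the 5 against 9.51% of all genes, and ZEB2 and SNAI1 under TGFβ1, 2 of the 5 against 8.46%.

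ZEB2 had 1422, 1435 and 1280.4 normalized counts in wt-GR Veh and 1326, 1389.9 and 1325 in wt-GR TGFβ1, against 608, 579.8 and 631 in S134A-GR Veh and 698, 587 and 586 in S134A-GR TGFβ1. Every S134A-GR library was below every wt-GR library, and within a line the treatments overlapped. On the log2 scale S134A-GR minus wt-GR was −1.18 (SE 0.0767, adjusted p = 1.97e-08 by limma) under vehicle and −1.11 (SE 0.0767, adjusted p = 3.94e-08) under TGFβ1. These calls held in all 21 alternative settings, with log2 fold changes of −1.24 to −1.15 under vehicle and −1.20 to −1.07 under TGFβ1. The per-kb ratio of ZEB1 to ZEB2 was 11.5 ± 0.41 (SD, n = 3) in wt-GR Veh and 12.8 ± 0.208 in wt-GR TGFβ1, and 23.3 ± 0.886 and 24.6 ± 0.816 in S134A-GR cells. ZEB1 itself differed between the lines by only −0.17 under either condition (SE 0.0544 for both, adjusted p = 0.017 under vehicle and 0.0196 under TGFβ1), with no overlap between wt-GR and S134A-GR libraries of the same treatment. The ZEB1 call was lost under vehicle without wt-GR Veh replicate 1 (−0.12, adjusted p = 0.0794) or S134A-GR Veh replicate 1 (−0.16, 0.0588). It was lost under TGFβ1 without wt-GR TGFβ1 replicate 1 (−0.17, 0.05) or 2 (−0.15, 0.0744), or S134A-GR TGFβ1 replicate 2 (−0.14, 0.0821) or 3 (−0.14, 0.0796).

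SNAI1 in S134A-GR minus wt-GR, on the log2 scale, was −0.23 (SE 0.0781, adjusted p = 0.0242) under vehicle and −1.04 (SE 0.0781, adjusted p = 9e-08) under TGFβ1. The difference under vehicle was small, 366 ± 2.23 against 430 ± 19.8 normalized counts (SD, n = 3), and its call was lost when wt-GR Veh replicate 3 was left out (−0.20, adjusted p = 0.0762) or when any of the S134A-GR Veh replicates was, with adjusted p-values of 0.0531, 0.0566 and 0.0518 without replicates 1, 2 and 3. The difference under TGFβ1 held in all 21 settings. SNAI2 was higher in S134A-GR cells by 0.20 under vehicle (SE 0.0503, adjusted p = 0.0041) and by 0.17 under TGFβ1 (SE 0.0503, adjusted p = 0.0135). The second of these calls was lost without wt-GR TGFβ1 replicate 3 (0.13, adjusted p = 0.071) or S134A-GR TGFβ1 replicate 1 (0.12, 0.0639). SNAI1 and SNAI2, close relatives, therefore stood on opposite sides of wt-GR under both conditions. For VIM the values were 0.02 (95% interval −0.06 to 0.10, adjusted p = 0.681) and 0.05 (−0.03 to 0.13, adjusted p = 0.275), so a difference of more than 0.13 on the log2 scale lay outside both intervals. NR3C1 was also lower in S134A-GR cells, by the values given above, and its part in these differences was not tested.

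**Figure D3:**
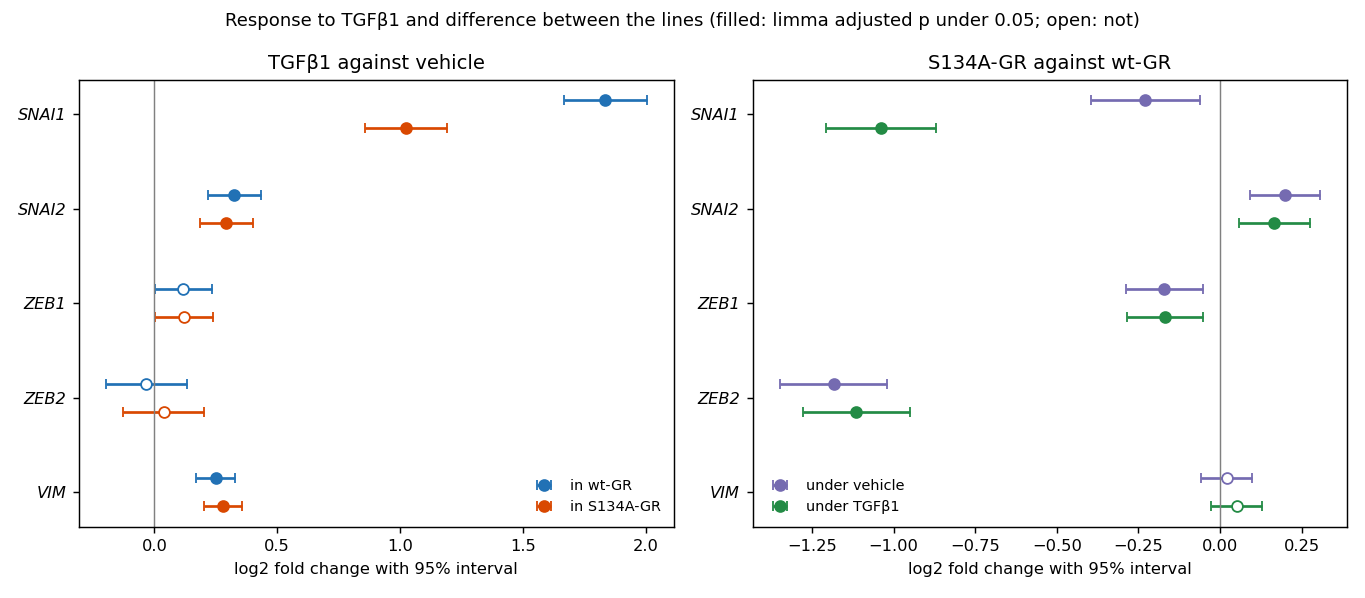
Log2 fold changes with 95% intervals from limma for the 5 tested genes, for TGFβ1 against vehicle in each line (left) and for S134A-GR against wt-GR under each treatment (right), with filled points for an adjusted p under 0.05. The intervals of SNAI1 in the 2 lines do not overlap on the left (1.67 to 2.00 and 0.86 to 1.19), and ZEB2 lies near −1.18 and −1.11 on the right.

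ZEB1 and VIM each have a divergent antisense transcript that starts inside the gene and runs out across its start. Antisense RNAs of this kind are often transcribed from the same promoter region as their partner. ZEB1-AS1 (chr10:31206278-31320447, minus strand) had 459, 468 and 510.0 normalized counts in the wt-GR Veh libraries in order of size and 933, 934 and 951 in those of S134A-GR Veh. Under TGFβ1 it had 533, 534 and 554 in wt-GR and 989, 999 and 1010.4 in S134A-GR cells. VIM-AS1 (chr10:17214239-17230018, minus strand) had 626, 631 and 645 in wt-GR Veh, 1420.2, 1425 and 1489 in S134A-GR Veh, 778, 835 and 846 in wt-GR TGFβ1, and 1813, 1969 and 2060.0 in S134A-GR TGFβ1. Both were higher in every S134A-GR library than in every wt-GR library. Between S134A-GR and wt-GR the log2 fold changes were 0.97 (SE 0.0625, adjusted p = 1.84e-08 by limma) and 0.89 (adjusted p = 4.96e-08) for ZEB1-AS1 under vehicle and TGFβ1, and 1.19 (SE 0.0603, adjusted p = 1.92e-09) and 1.25 (adjusted p = 1.25e-09) for VIM-AS1. In the same comparisons ZEB1 was at −0.17 and −0.17, in the other direction, and VIM, at 0.02 and 0.05, did not pass the test. TGFβ1 raised VIM-AS1 with VIM, by 0.37 (adjusted p = 0.000496) in wt-GR and 0.43 (adjusted p = 0.000159) in S134A-GR cells, while ZEB1-AS1 had 0.18 (adjusted p = 0.0617) and 0.09 (adjusted p = 0.379). The antisense transcript at the third Snail gene, SNAI3-AS1 (chr16:88663298-88687282, plus strand), had log2 fold changes between the lines of 0.06 and −0.07, and neither passed the test. ZEB2-AS1, MIR200CHG and MIR205HG were not analysed here. The TruSeq RNA kit is named without a strand option and the strand setting of the counting is not given in the sources used here, so reads in the overlap of a gene with its antisense partner cannot be told apart.

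**Figure D4:**
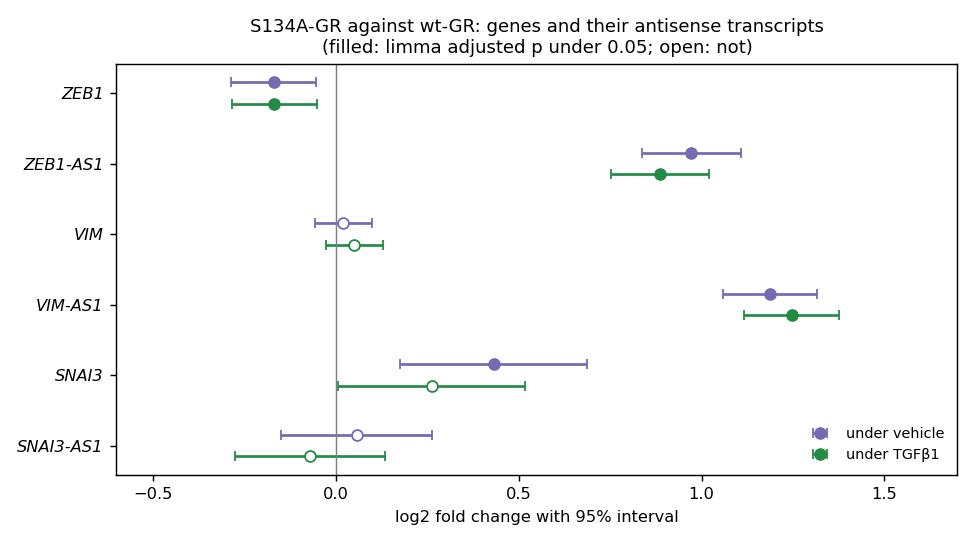
Log2 fold changes of S134A-GR against wt-GR with 95% intervals from limma for ZEB1, VIM, SNAI3 and their antisense transcripts, under vehicle and under TGFβ1, with filled points for an adjusted p under 0.05. ZEB1-AS1 (0.97 and 0.89) and VIM-AS1 (1.19 and 1.25) lie far to the right of their sense partners.

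The sequences just before the starts of ZEB1 and VIM are shown because the antisense transcript of each gene runs through them. RefSeq windows of GRCh38.p14 were at hand for ZEB1, with 7 starts, and for ZEB2, TWIST2 and VIM, with 1 each. Each was read as the 250 bases before a start, 5′ to 3′ on the strand of the gene. Capitals mark the E-box letters CAGGTG, to which Snail and ZEB proteins are known to bind.
ZEB1, first start, chr10:31318167-31318416, plus strand: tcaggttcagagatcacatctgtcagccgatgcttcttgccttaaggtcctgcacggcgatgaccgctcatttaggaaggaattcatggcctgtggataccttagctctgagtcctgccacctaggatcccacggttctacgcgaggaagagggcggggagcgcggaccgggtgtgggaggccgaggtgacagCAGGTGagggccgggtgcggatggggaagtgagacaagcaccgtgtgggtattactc
VIM, chr10:17227991-17228240, plus strand: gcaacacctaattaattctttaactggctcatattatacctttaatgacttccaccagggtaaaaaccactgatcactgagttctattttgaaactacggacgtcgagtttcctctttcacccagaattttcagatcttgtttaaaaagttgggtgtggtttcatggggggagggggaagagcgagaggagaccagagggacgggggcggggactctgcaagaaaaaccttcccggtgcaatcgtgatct
The ZEB1 window lies within ZEB1-AS1 and holds 1 CAGGTG, 57 bases before the start. The VIM window lies within VIM-AS1 and holds none. On both strands, CAGGTG occurs in 17.5% of the 35116 RefSeq windows of this length. Besides the window shown, it was found in 1 of the other ZEB1 windows, where it occurs 2 times, and in none of those of ZEB2 and TWIST2. Other letters searched on both strands were CAGAC and GTCTAGAC, to which SMAD proteins are known to bind and which overlap in the letters AGAC, and AGAACA, which resembles an arm of the GR response element. CAGAC occurred in 3 of the 7 ZEB1 windows (38% of all windows hold it), and GTCTAGAC (0.182%) and AGAACA (12.4%) in none of the windows of these 4 genes. These are matches of letters only, and no binding was measured here.

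The other transcription factors of EMT were called in both directions between the lines, at counts somewhat above the shares over all genes. In so short a list, that excess was not tested. Of the 10 tested (of 11 listed, with GSC not analysed here), under vehicle the S134A-GR line had 4 higher and 3 lower, against 25% and 26.5% of all genes tested, with a median log2 fold change of 0.24, where that of all genes was 0.02. Under TGFβ1 3 were higher and 3 lower, against 23.1% and 25.7%, with a median of 0.25. The largest called change was in KLF8, a Krüppel-like factor of low level, named after its values were seen. KLF8 had 55.6 ± 4.10 normalized counts in wt-GR Veh and 4.27 ± 3.53 in S134A-GR Veh (SD, n = 3), the latter near the floor. Its log2 fold changes were −3.67 (limma adjusted p = 0.000148) under vehicle and −3.66 (adjusted p = 0.000169) under TGFβ1. Among the factors with a mean of at least 50 normalized counts, FOXQ1, a forkhead factor, had the largest change, 1.23 under vehicle (adjusted p = 1.04e-09 by limma) and 1.42 under TGFβ1 (adjusted p = 2.81e-10). TCF4 (E2-2, a partner of TWIST proteins) was higher under vehicle by 0.60 (adjusted p = 0.023) with overlapping libraries. With TGFβ1, TCF4 rose by 1.29 in wt-GR and 0.98 in S134A-GR cells, and FOXQ1 fell by 1.01 and 0.82. In all, TGFβ1 raised 2 and lowered 2 of the 10 in wt-GR cells (11.2% and 9.82% of all genes) and raised 1 and lowered 2 in S134A-GR cells (10% and 8.69%). SNAI3, the third Snail gene, differed between the lines under vehicle by 0.43 (adjusted p = 0.00717) and did not pass the test under TGFβ1 (0.26, adjusted p = 0.084).

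Factors of the epithelial state, which oppose ZEB and Snail proteins, were for the most part at low levels. Of the 10 tested, 4 had a mean of at least 50 normalized counts. Under vehicle the S134A-GR line had 1 higher and 2 lower (25% and 26.5% of all genes), with a median log2 fold change of 0.19, and under TGFβ1 1 higher and 1 lower (23.1% and 25.7%), with a median of −0.07. ELF3, an epithelial ETS factor, had 172 ± 18.6 normalized counts in wt-GR Veh and 14.1 ± 2.81 in S134A-GR Veh (SD, n = 3), or −3.53 on the log2 scale (adjusted p = 2.34e-06 by limma). ELF3 met the mean of 50 required of named genes only through wt-GR Veh, the group in which it was high. Its being named is therefore not support for the difference between the lines or for the fall of ELF3 with TGFβ1 in wt-GR cells. With TGFβ1 it fell by 3.14 (adjusted p = 2.67e-05) in wt-GR cells, to 18.8 ± 4.15, and by 1.60 (adjusted p = 0.0078) in S134A-GR cells, where it ended at 4.53 ± 3.21, close to the floor. The difference between these responses was 1.55 and did not pass the test (adjusted p = 0.359). KLF4 was higher in S134A-GR cells by 0.30 under both conditions and rose with TGFβ1 by 0.29 and 0.28. GRHL2 and OVOL2, known antagonists of ZEB1, had group means of 0 to 6.71 normalized counts. OVOL2 was called lower in S134A-GR Veh at these levels, with reads near or under the floor.

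The epithelial genes that Snail and ZEB proteins are known to bind or repress moved in both directions between the lines. Of the 22 tested, under vehicle the S134A-GR line had 4 higher, 9 lower and 9 not called, where 25% of all genes were higher and 26.5% lower, with a median log2 fold change of −0.23 (all genes, 0.02). Under TGFβ1 the counts were 4, 10 and 8, where 23.1% of all genes were higher and 25.7% lower, with a median of −0.28 (all genes, 0.01). KRT19, a simple epithelial keratin, went from 4158 ± 307 normalized counts in wt-GR Veh to 837 ± 75.3 in S134A-GR Veh (SD, n = 3), or −2.31 on the log2 scale (adjusted p = 3.15e-11 by limma). CLDN4, a tight junction claudin, was at −1.98 (adjusted p = 3.27e-09) and EPCAM, an epithelial adhesion molecule, at −1.44 (adjusted p = 5.66e-08). In the other direction, CDH3 (P-cadherin) was at 1.29 (adjusted p = 1.29e-06) under vehicle and MUC1, an apical mucin, at 1.47 (adjusted p = 1.81e-09) under TGFβ1. CDH1 did not pass the test in any comparison, with its levels near the floor. TGFβ1 lowered 6 and raised 1 of the 22 in each line, where it lowered 9.82% and raised 11.2% of all genes in wt-GR and lowered 8.69% and raised 10% in S134A-GR cells. The medians were −0.19 in wt-GR and −0.17 in S134A-GR cells. The lowered genes included CGN (cingulin, −0.47 and −0.40) and PKP2 (plakophilin, −0.43 and −0.33) in both lines. In the other direction, the 1 gene raised in S134A-GR cells was CLDN4 (0.45, adjusted p = 0.00835 by limma).

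Mesenchymal genes rose with TGFβ1 more often than they fell. In wt-GR cells 7 of the 14 tested were higher and 2 lower, where 11.2% of all genes were higher and 9.82% lower, with a median log2 fold change of 0.59. In S134A-GR cells 7 were higher and 1 lower, where 10% of all genes were higher and 8.69% lower, with a median of 0.19, while the median of all genes was 0.00 in wt-GR and −0.01 in S134A-GR cells. TAGLN (transgelin), an actin-binding protein, rose by 1.37 (adjusted p = 3.27e-08 by limma) and 0.93 (adjusted p = 2.17e-06), and COL5A1, a fibrillar collagen chain, by 1.14 (adjusted p = 2.12e-09) and 0.87 (adjusted p = 4.11e-08). ACTA2 (smooth muscle actin), by contrast, fell in wt-GR cells by 0.94 (adjusted p = 0.0152), from 62.8 ± 9.54 to 32.6 ± 8.35 normalized counts (SD, n = 3), and was at −0.48 in S134A-GR cells (adjusted p = 0.223). The other gene that fell in wt-GR cells, named after its values were seen, was S100A4, a calcium-binding protein (−0.22, adjusted p = 0.0321). The response differed between the lines for 2 of the 14, where 0.414% of all genes tested were called. PDGFRB, the receptor for PDGF-BB, had 2143 ± 35.9 normalized counts in wt-GR Veh, 3888 ± 151 in wt-GR TGFβ1, 1912 ± 59.4 in S134A-GR Veh and 2166 ± 119 in S134A-GR TGFβ1 (SD, n = 3). Its response was 0.86 in wt-GR and 0.18 in S134A-GR cells, which differ by −0.68 (adjusted p = 0.000909). CDH11, a mesenchymal cadherin, rose in S134A-GR cells by 0.39 (adjusted p = 0.000175) and was at −0.04 in wt-GR cells (adjusted p = 0.692), a difference of 0.43 (adjusted p = 0.0311). Between the lines, 5 of the 14 were higher and 3 lower in S134A-GR Veh (25% and 26.5% of all genes), with a median of 0.10, and 3 higher and 4 lower in S134A-GR TGFβ1 (23.1% and 25.7%), with a median of −0.22. CDH11 was the largest of these changes, with 6655 ± 190 normalized counts in wt-GR Veh and 1012 ± 81.2 in S134A-GR Veh, or −2.72 on the log2 scale (adjusted p = 3.45e-13). FN1 (fibronectin) was at −2.10 (adjusted p = 7.88e-08). Its libraries ran from 29774 to 57099 normalized counts in wt-GR Veh and from 9197 to 9951 in S134A-GR Veh. By contrast, CDH2 (N-cadherin, 1.05, adjusted p = 0.002) and MMP2, a matrix metalloproteinase (0.94, adjusted p = 0.000274), were higher. In wt-GR Veh, CDH2 and MMP2 were below the mean of 50 required of named genes, at 34.2 ± 9.20 and 44.5 ± 4.62 normalized counts, and met it through groups in which they were higher.

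**Figure D5:**
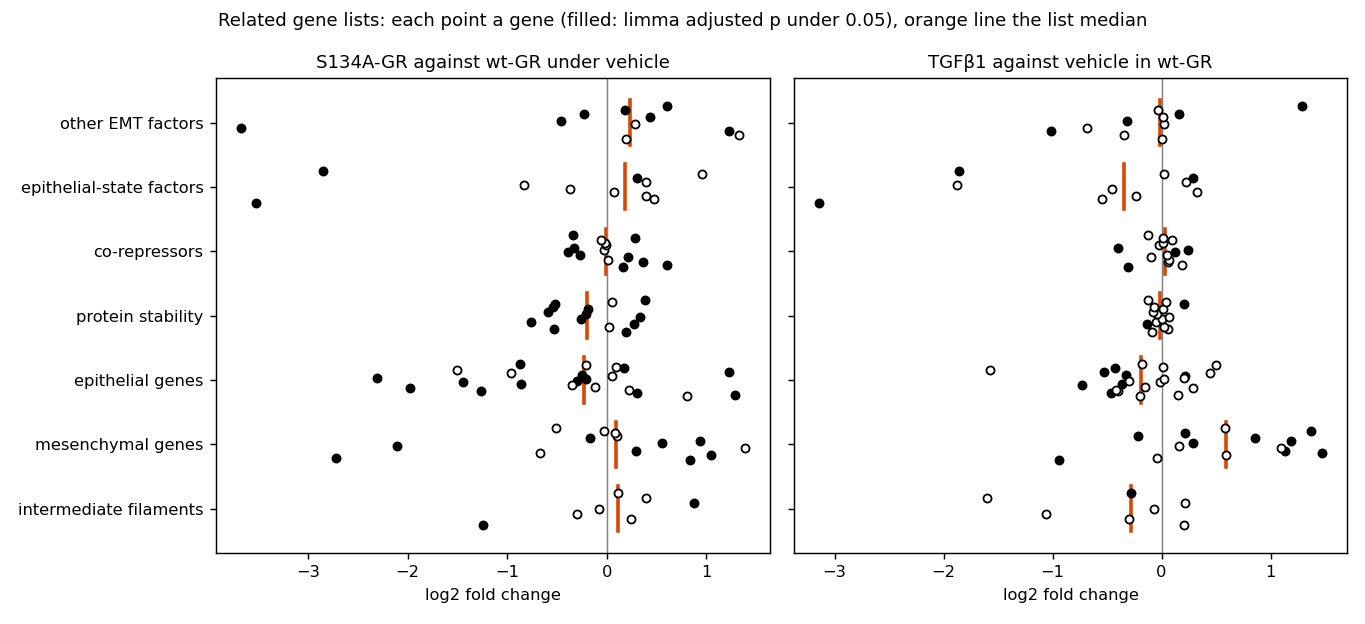
Log2 fold changes of the genes in 7 related lists (1 point per gene, filled for a limma adjusted p under 0.05, orange line for the list median), for S134A-GR against wt-GR under vehicle (left) and TGFβ1 against vehicle in wt-GR cells (right). Epithelial and mesenchymal genes spread to both sides on the left, with medians of −0.23 and 0.10, and the mesenchymal list has its median at 0.59 on the right.

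Vimentin belongs to a family of cytoplasmic intermediate filaments, of which VIM was the member followed here. Of 10 such genes and linkers listed, 7 were tested and INA, NEFL and NEFM were not analysed here. Between the lines 1 was higher and 1 lower under vehicle and 2 higher and 2 lower under TGFβ1 (25% and 26.5%, and 23.1% and 25.7%, of all genes). TGFβ1 lowered 1 and raised 0 in each line, but not the same gene. It lowered SYNM (−0.28, limma adjusted p = 0.0201) in wt-GR and GFAP (−1.22, adjusted p = 0.00047) in S134A-GR cells. Of all genes it lowered 9.82% and raised 11.2% in wt-GR cells, and lowered 8.69% and raised 10% in S134A-GR cells. PLEC (plectin), which links vimentin to other filaments and to adhesions, was higher in S134A-GR cells by 0.88 under vehicle (adjusted p = 1.26e-06 by limma) and 0.74 under TGFβ1 (adjusted p = 6.7e-06). DES (desmin), a muscle filament, was at −1.24 and −1.50, with group means of 72.1 and 84.1 normalized counts in wt-GR cells and 31.5 and 28.9 in S134A-GR cells. It met the mean of 50 only through the wt-GR groups, in which it was high, so its being named is not support for the difference. NES (nestin), a partner of vimentin in mixed filaments, had group means of 1836 to 1985 normalized counts.

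Genes for proteins that work with or control these factors were called in both directions. Of 14 co-repressors and chromatin partners, 5 were higher and 4 lower in S134A-GR Veh (25% and 26.5% of all genes), with a median of −0.01. In S134A-GR TGFβ1 the counts were 5 and 5 (23.1% and 25.7%). TGFβ1 raised 2 and lowered 2 in each line. Of all genes it raised 11.2% and lowered 9.82% in wt-GR cells, and raised 10% and lowered 8.69% in S134A-GR cells. In S134A-GR against wt-GR cells under vehicle, HDAC2, a histone deacetylase recruited by SNAI1, was at −0.39 (adjusted p = 1.08e-06 by limma). In the same comparison CTBP1, a co-repressor bound by ZEB proteins, was at 0.36 (adjusted p = 2.54e-06) and BMI1, a Polycomb protein, at 0.60 (adjusted p = 0.000815). With TGFβ1, LIMD1 fell by 0.40 and 0.29 and AJUBA fell by 0.30 and 0.35 in wt-GR and S134A-GR cells, both LIM proteins that serve as SNAI1 co-repressors. TGFβ1 raised KDM1A, the histone demethylase that SNAI1 recruits, by 0.24 and 0.16. Of 14 genes for the stability and modification of SNAI1 and its relatives, 4 were higher and 8 lower in S134A-GR Veh (25% and 26.5% of all genes), with a median of −0.20. In S134A-GR TGFβ1 the counts were 4 and 7 (23.1% and 25.7%). TGFβ1 raised 1 and lowered 1 in wt-GR cells (11.2% and 9.82% of all genes). It raised 2 and lowered 1 in S134A-GR cells (10% and 8.69%). Among the lower ones under vehicle, FBXO11, an F-box protein that targets SNAI1 for degradation, was at −0.76 (adjusted p = 1.72e-07 by limma). LATS2, a kinase that phosphorylates SNAI1 and keeps it in the nucleus, was at −0.59 (adjusted p = 3.51e-08), and PAK1, another SNAI1 kinase, at −0.54 (adjusted p = 2.01e-07). The 4 higher ones under vehicle were USP27X (0.38, adjusted p = 0.0441), FBXW7 (0.33, 0.000886), FBXL5 (0.28, 0.000146) and BTRC (0.19, 0.00683). Protein levels were not measured in these libraries.

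Among 13280 genes with a mean of at least 50 normalized counts, those whose log2 values followed each gene most closely over the 12 libraries are given as a description, since all the libraries share the same 2 clones and 2 treatments. For SNAI1 they were C1orf106 (Pearson r = 0.99), SPSB1 (0.989) and MDFI (0.987). C1orf106 and MDFI belong, like SNAI1, to the gene signature that the study picked from these libraries. For ZEB2 they were PRKD3, PCDHGC3 and ADAM17, each with r = 0.997 or 0.998, in a pattern of 2 levels that separates the lines. For SNAI2 they were PSME3 (0.981), KCTD10 (0.98) and ZFP36L1 (0.975), for ZEB1 PKP4 (0.969), CLINT1 (0.963) and PDE4D (0.959), and for VIM ALDH18A1 (0.99), PTK2 (0.989) and ZNF41 (0.985). Among the 5 genes themselves, r was 0.866 between SNAI2 and VIM, 0.801 between SNAI1 and VIM, and 0.756 between ZEB1 and ZEB2, whereas SNAI2 and ZEB2 had −0.465.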

How the data were processed

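The 12 RNA-seq libraries came from 2 MDA-MB-231 lines, each with and without TGFβ1. What was deposited is a signal, size-factor-normalized counts per gene symbol, which the authors made from 75-base paired-end reads with Trimmomatic, HISAT2 on hg38, featureCounts and DESeq2 (1.22.2) size factors, without pooling replicates. The annotation, the strand setting and the versions of HISAT2 and featureCounts are not given in the sources used here. Of the values 100% were whole multiples of 1 step per library (tolerance 0.01), so reads were recovered for the floor (3 reads), the filter (at least 10 reads over all libraries) and the count tests.

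Log2 of the normalized count plus 1 served as input to limma (3.58.1, R 4.3.3) with 4 group means, a trend and Benjamini-Hochberg adjustment over 18579 genes. Fold changes on this scale understate those of low genes. An exact permutation test over 3 against 3 libraries has 0.1 as its smallest p, so none was used. The edgeR 4.0.16 quasi-likelihood test and the DESeq2 1.42.0 Wald test were run on the recovered reads as alternatives and called 9452 and 9406 genes between the lines under vehicle, where limma called 9569. Other alternatives were pseudocounts of 0.5 and 16, filterByExpr, a filter of 1 read, TMM scaling, a replicate block, only the groups compared, and each library left out. The fit was tested on simulated data. The genes and lists were chosen with earlier results of these data known. Named were all 7 genes, in each list at most 4 called genes of mean at least 50 with the largest change, the check genes, the antisense transcripts and the 3 genes most like each. CDH1, GRHL2, OVOL2, NES, KLF8, S100A4, USP27X, FBXW7, FBXL5 and BTRC were named after their values were seen. Some genes that this rule names are not reported here. INADL was counted under its symbol in the tables. Gene coordinates and transcript lengths came from GENCODE v44.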

Additional observations from a re-analysis of the deposited data

Results flagged for a closer look

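The SNAI1 response to TGFβ1 differed between the lines by a test of the difference itself. On the log2 scale wt-GR cells had 1.84 and S134A-GR cells 1.03, and these differed by −0.81 (limma adjusted p = 0.00717), and SNAI1 was higher under TGFβ1 in 3 of 3 libraries of each line. Groups of 3 libraries were not tested for outlying samples.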

How the results depend on the processing

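Each of the 5 genes was refitted under 21 alternatives in each comparison (20 for the difference between responses, for which the fit of only the groups compared does not apply). Of these values, 498 kept their direction and their side of the threshold, 12 kept their direction and lost the call, 1 gained it and 9 changed sign. All 12 lost calls came from leaving out 1 library. The number of the 5 genes called was 2 to 4 between the lines under vehicle, 3 to 4 under TGFβ1, 3 to 4 for TGFβ1 in wt-GR cells, 3 in S134A-GR cells and 1 for the difference between responses when a library was left out. The lowest, 2, came without S134A-GR Veh replicate 1, where SNAI1 and ZEB1 lost their calls. None of the values that changed sign was called. They were the difference between responses of ZEB1, which was 0.00 and became −0.003717 with edgeR and −0.006265 with TMM scaling and lay between −0.05338 and 0.05711 when a library was left out, that of ZEB2, which lay between −0.01401 and 0.1223, and the TGFβ1 response of ZEB2 in S134A-GR cells, which lay between −0.04657 and 0.07966. Over all genes, the number whose response differed between the lines was 77 with limma, 211 with DESeq2 and 22 to 166 when a library was left out, and the cause was not tested.

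Same-numbered libraries did not deviate together. The mean r of their deviations from the group means was 0.000251 over 18 pairs (−0.105 to 0.128, 13281 genes), and −3.63e-05 for other numbers. With the replicate block the number of the 5 genes called stayed at 4, 4, 3, 3 and 1, the SNAI1 difference was −0.81 with a limma adjusted p of 0.0183, and 58 genes in all were called for the difference. Depth limits TWIST2 and CDH1, which lie near the floor, and 3 libraries per group limit the small differences of ZEB1, SNAI2 and SNAI1 between the lines.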
